A study of Mus musculus with 4 samples.

Results

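Receptor tyrosine kinases are membrane proteins that bind a growth factor or matrix protein outside the cell and then phosphorylate themselves and their partners inside it. The values below are those of 10 receptors of this class in NIH/3T3 cells, an immortalised line of mouse fibroblasts, namely *Pdgfra* and *Pdgfrb* (receptors of platelet-derived growth factors), *Egfr* (epidermal growth factor receptor), *Fgfr1* and *Fgfr2* (fibroblast growth factor receptors), *Igf1r* and *Insr* (receptors of insulin-like growth factor and insulin), *Met* (receptor of hepatocyte growth factor), *Axl* (receptor of GAS6) and *Ddr2* (a collagen receptor). They were chosen by gene symbol, and every tested transcript with one of these symbols was used, 27 transcripts of 10 genes out of 34200 transcripts of 21945 genes. The GENCODE M21 annotation holds 94 transcripts of these 10 genes.

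The knockdown (KD) group was NIH/3T3 cells that received siRNAs against *Setd2*, the enzyme that deposits H3K36me3 along transcribed genes, and the control (WT) group was the same line with a Scrambled, non-targeting siRNA. Both groups were transfected by lipofection at 10 nM siRNA, and RNA was extracted after 48 h. Stranded mRNA-seq of polyadenylated RNA was made from 2 KD and 2 WT libraries. No untreated cells and no second cell line were used here, so effects of losing *Setd2* cannot be told apart from other effects of these siRNAs. The labels do not say from which of the independent transfections a library came, so the p-values measure the spread between these libraries. The deposited table gives, for each transcript, statistics over the 4 libraries and none for a single library. Depth per library is therefore unknown, and each level below is a group mean computed from the natural log scale, in normalised estimated counts.

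In fibroblasts, platelet-derived and fibroblast growth factors are classical signals for growth and migration. Active receptors bind adaptors such as SHC1 and GRB2 and lead to the RAS-ERK and PI3K-AKT pathways, while ubiquitin ligases and phosphatases switch them off. Fibroblast growth factor receptors exist in isoforms that differ in their extracellular immunoglobulin-like domains, and the choice between exons IIIb and IIIc decides which ligands they bind. The IIIb forms are typical of epithelial cells and the IIIc forms of mesenchymal cells.

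The only tested *Setd2* transcript (chr9:110532597-110618633, GRCm38) fell from 3680.4 normalised estimated counts in WT to 923 in KD. Its log2(fold change) was −1.99 (standard error 0.08, adjusted p = 0.0144, limma's moderated test), and the libraries of both groups cannot overlap. Of 16 fibroblast markers 14 were tested, with a summed level of 1443741.6 normalised estimated counts in WT and 1304012.2 in KD. Not each of them was high, since *Lum* was at 8.93 in WT and 5.45 in KD, and *Fap* and *Postn* were not tested. Of the 14 tested markers, 2 had a transcript called higher (*Fn1*, *Dcn*) and 3 had one called lower (*Col1a1*, *Col1a2*, *Col3a1*). These were 14.3% and 21.4%, against 7.47% and 5.93% of all genes. The markers of other cell types had lower summed levels, with 119 and 158 in WT and KD for 2 of 8 epithelial markers. The sums were 127 and 140 for 5 of 7 endothelial markers, and 442 and 486 for 5 of 8 blood cell markers. Most of the blood cell sum was *Cd68*, at 303 in WT and 391 in KD, so not each of these markers was low. Among the defining markers, *Epcam*, *Cldn5* and *Cd3e* were not among the tested transcripts. limma's moderated test called 0 of these markers of other cell types, with 1 epithelial, 1 endothelial and 2 blood cell genes at an unadjusted p under 0.05 and 0 called by the q-values of Sleuth.

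Of the 27 receptor transcripts, 5 rose and 1 fell in KD (limma's moderated test, Benjamini-Hochberg adjusted p under 0.05 over all 34200 transcripts). *Fgfr1* rose with 3 isoforms, and *Pdgfra* and *Ddr2* with 1 isoform each, while the main *Egfr* transcript fell. Over all transcripts tested, 9.68% were called, 5.44% higher and 4.24% lower, against 18.5% and 3.7% of the receptor transcripts. By gene, 3 of the 10 receptors had a transcript called higher and 1 had a transcript called lower, and 7.47% and 5.93% of all genes did so. These shares were not matched for tested transcripts per gene, 27 for the 10 receptors against 34200 for 21945 genes. The receptor transcripts had a median of 1059.3 counts and all transcripts one of 155. These counts were not divided by transcript length, so they do not rank the receptors against other genes in abundance. Where the mean was 100 counts or more, 6 of 22 receptor transcripts (27.3%) and 15.6% of all 18832 were called. The median log2(fold change) was 0.34 over the 27 receptor transcripts and −0.01 over all transcripts. The plot of all receptor transcripts shows these effects with their confidence intervals.

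**Figure D1:**
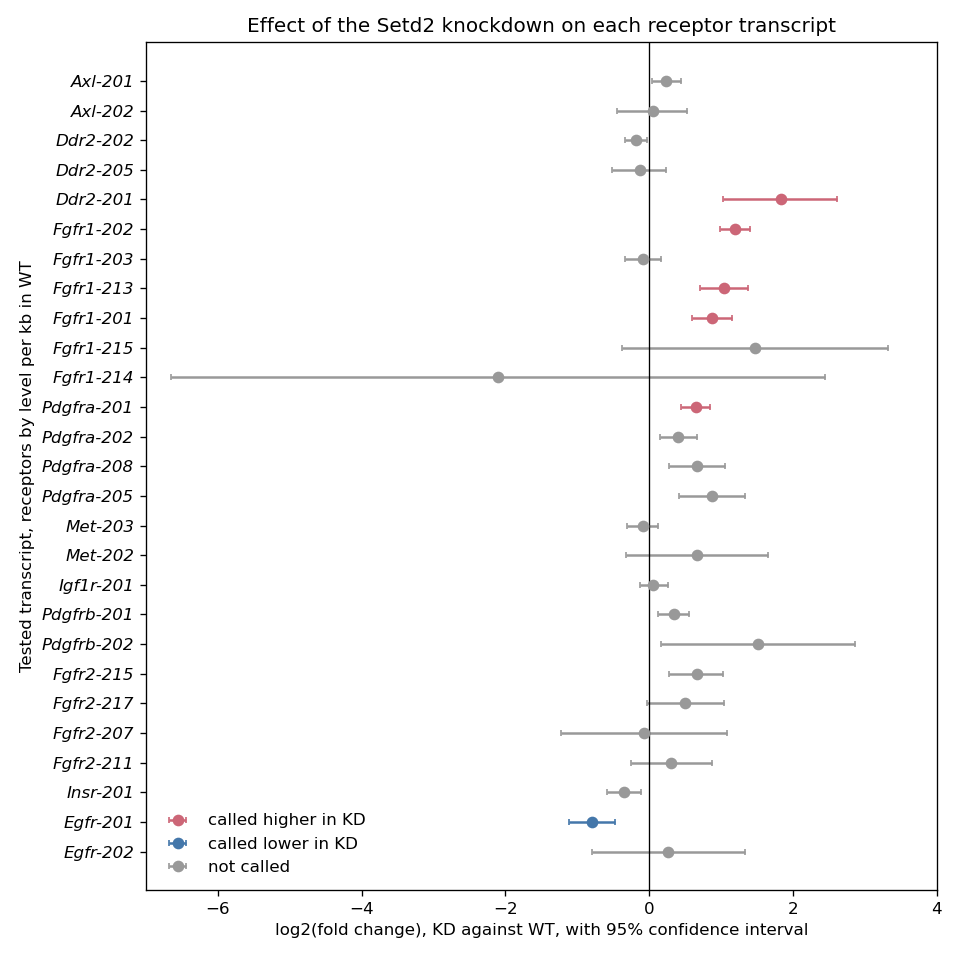
Log2(fold change) of KD against WT (horizontal axis) for each of the 27 tested receptor transcripts (vertical axis, receptors ordered by level per kb in WT), with 95% confidence intervals from the moderated standard errors. The 5 transcripts called higher lie between 0.65 and 1.83 and the *Egfr* transcript called lower lies at −0.80, while the widest interval belongs to the scarce isoform Fgfr1-214.

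*Fgfr1*, the main receptor of fibroblast growth factors in mesenchymal cells, lies on chromosome 8 (chr8:25513654-25575718, plus strand, GRCm38), and 6 of its 19 annotated transcripts were tested. Among their differences are the exon of the first immunoglobulin-like domain, the choice between exons IIIb and IIIc and an insert of 2 codons. They also differ in their untranslated regions, and Fgfr1-215 encodes 833 amino acids, against 820 in Fgfr1-202. The exon of the first immunoglobulin-like domain and the insert are shown here because the summed levels of isoforms with and without them differed in their change. The stretch in capitals is the exon or insert, and the lower-case letters are the neighbouring exons, 5′ to 3′.

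Fgfr1 exon of the first immunoglobulin-like domain, chr8:25555508-25555774: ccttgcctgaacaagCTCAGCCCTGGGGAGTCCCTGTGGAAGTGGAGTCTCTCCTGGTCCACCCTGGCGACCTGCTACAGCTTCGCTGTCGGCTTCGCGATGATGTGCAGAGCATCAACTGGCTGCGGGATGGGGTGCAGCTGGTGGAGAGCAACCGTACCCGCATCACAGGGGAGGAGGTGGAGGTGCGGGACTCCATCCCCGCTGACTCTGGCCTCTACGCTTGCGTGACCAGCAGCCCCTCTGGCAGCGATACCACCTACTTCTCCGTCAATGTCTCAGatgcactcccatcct
Fgfr1 insert of 2 codons, chr8:25557815-25557820: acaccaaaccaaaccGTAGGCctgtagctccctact
Fgfr1 the same junction without the insert: acaccaaaccaaaccctgtagctccctact

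The exon of the first immunoglobulin-like domain has 267 bases and is present in Fgfr1-201, Fgfr1-202 and Fgfr1-215. It is skipped in Fgfr1-203, Fgfr1-213 and Fgfr1-214, which encode receptors with only the inner immunoglobulin-like domains. Exon IIIb is in Fgfr1-213 and Fgfr1-214, and exon IIIc is in the other 4 isoforms. The 6-base insert is in Fgfr1-201 and Fgfr1-203. It comes from the choice between splice donor sites at the end of the same exon, since the annotated exons differ only in their last 6 bases.

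The isoform Fgfr1-202 (ENSMUST00000117179.8, 820 amino acids, first immunoglobulin-like domain, exon IIIc) had a level of 1806.2 normalised estimated counts in WT and 4140.2 in KD. It rose 2.29-fold, a log2(fold change) of 1.20 with a 95% confidence interval from 0.99 to 1.41 (adjusted p = 0.0154, limma's moderated test). The isoform Fgfr1-213 (ENSMUST00000167764.1, 733 amino acids, exon IIIb) was at 919 normalised estimated counts in WT and 1892.2 in KD. It rose 2.06-fold, a log2(fold change) of 1.04 (0.71 to 1.37, adjusted p = 0.0239). The isoform Fgfr1-201 (ENSMUST00000084027.12, 822 amino acids, exon IIIc with the insert) went from 783 to 1432.8 normalised estimated counts, a log2(fold change) of 0.87 (0.60 to 1.15, adjusted p = 0.0237). For each of the 3 isoforms the WT and KD libraries cannot overlap. Their GC content was 55.3% to 57.4%, and after centring effects on a trend with GC content they remained called, with log2(fold changes) of 1.01, 0.84 and 0.67.

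The isoform Fgfr1-203 (ENSMUST00000119398.9, 733 amino acids, exon IIIc with the insert, no first immunoglobulin-like domain) was the most abundant in WT and did not pass the test. Its level was 2397.7 normalised estimated counts in WT and 2266.7 in KD, with a log2(fold change) of −0.08 (−0.33 to 0.17, adjusted p = 0.628), and its WT and KD libraries must overlap. The interval of Fgfr1-203 does not reach those of Fgfr1-202, Fgfr1-213 and Fgfr1-201, but the difference between isoforms was not tested, since it needs values of single libraries. As a share of all *Fgfr1* counts, Fgfr1-203 went from 40.5% in WT to 23.2% in KD, and Fgfr1-202 from 30.5% to 42.4%. The other 2 isoforms were scarce, with Fgfr1-215 at 8.84 and 25.4 normalised estimated counts in WT and KD and Fgfr1-214 at 10.6 and 2.1, and neither passed the test.

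Summed over isoforms, the level of *Fgfr1* was 5925.8 normalised estimated counts in WT and 9759.4 in KD, a log2(fold change) of 0.72 (0.59 to 0.85). Isoforms with the exon of the first immunoglobulin-like domain had a summed level of 2598.1 in WT and 5598.4 in KD, and those without it of 3327.7 and 4161. The log2(fold changes) of these sums were 1.11 (0.94 to 1.28) and 0.32 (0.12 to 0.52), and the share of counts of the isoforms with the exon was 43.8% in WT and 57.4% in KD. Isoforms with the 2-codon insert went from 3180.7 to 3699.5 normalised estimated counts and those without it from 2745 to 6059.8. Their share of counts was 53.7% in WT and 37.9% in KD for isoforms with the insert. Fgfr1-203, with a log2(fold change) of −0.08, is in the sum without the exon and in the sum with the insert. Isoforms within these sums did not move alike, since Fgfr1-213, without the exon, rose by 1.04 and Fgfr1-201, with the insert, by 0.87. The sums therefore do not show a shift shared by all isoforms without the exon or with the insert. Isoforms with exon IIIc held 84.3% of the counts in WT and 80.6% in KD, and those with exon IIIb held the rest. *Fgfr1* counts thus lay mainly in the IIIc forms in both groups.

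The isoforms of *Fgfr1* share most of their sequence, and Fgfr1-202, Fgfr1-203, Fgfr1-213 and Fgfr1-214 have 0 words of 31 bases that are found in no other tested transcript. Fgfr1-201 has 17 such words and Fgfr1-215 has 67. The levels of the single isoforms therefore depend on how the reads were divided among them. The variance that Sleuth attributes to this read assignment was 149% of the variance within groups for Fgfr1-202, 78.4% for Fgfr1-203, 44.2% for Fgfr1-213 and 107% for Fgfr1-201. The sums cover the 6 tested of 19 annotated transcripts, so reads assigned to untested ones are left out, and the intervals of the sums take the isoforms as independent. The part of read assignment in the change of isoform shares was not tested.

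**Figure D2:**
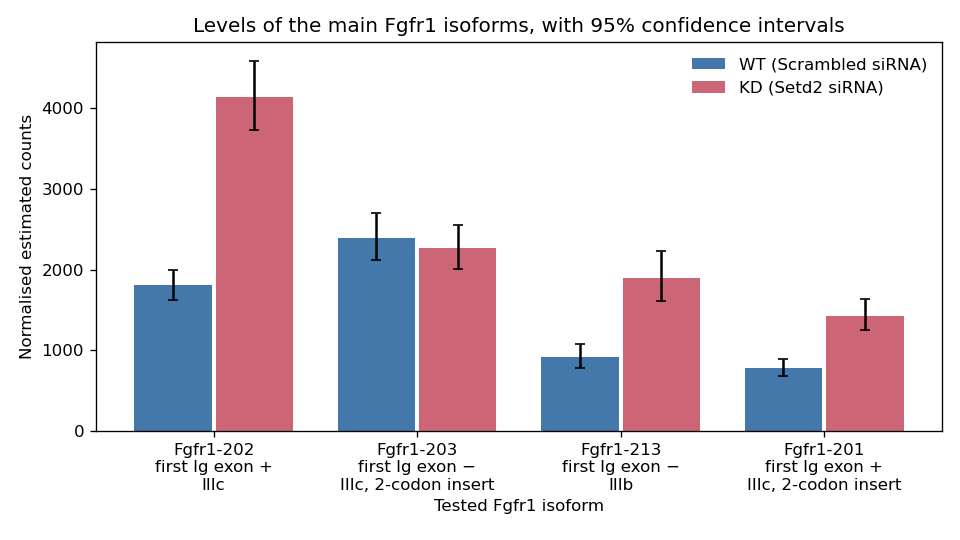
Levels of the 4 main *Fgfr1* isoforms (vertical axis, normalised estimated counts, linear) in WT and KD (horizontal axis, 1 pair of bars for each isoform). Bars are group means of 2 libraries with 95% confidence intervals. Fgfr1-202 went from 1806.2 to 4140.2, while Fgfr1-203 stood at 2397.7 and 2266.7.

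*Fgfr2*, the related receptor whose IIIb form binds FGF7 and FGF10, lies on chromosome 7 (chr7:130162451-133123350, minus strand), and 4 of 27 annotated transcripts were tested. No *Fgfr2* transcript passed the moderated test, with 1 transcript at an unadjusted p under 0.05 and 1 called by the likelihood ratio q-values, in both cases Fgfr2-215. This isoform (ENSMUST00000122054.7, 840 amino acids, exon IIIc, first immunoglobulin-like domain) was at 438 normalised estimated counts in WT and 691 in KD, a log2(fold change) of 0.66 (0.28 to 1.03, adjusted p = 0.0599). Its libraries cannot overlap. Fgfr2-207 (ENSMUST00000117872.7, exon IIIc without the first domain) was at 201 in WT and 191 in KD. Fgfr2-211 (ENSMUST00000120187.8), the only tested isoform with exon IIIb, was at 68 and 84.2, or 6.31% and 5.65% of all *Fgfr2* counts. Fgfr2-217 (ENSMUST00000124096.7) is a short transcript of 7 exons that encodes 182 amino acids, too few for a whole receptor. It was at 370 in WT and 525 in KD. Among the tested isoforms it alone reaches the upper end of the gene span, 133123350, while the others end at 130266263 or below. Of the sequence words counted for *Fgfr1* above, Fgfr2-217 has 30 that are found in no other tested transcript. Fgfr2-207 has 28 such words, Fgfr2-211 has 194 and Fgfr2-215 has 375. The summed level of *Fgfr2* was 1077.2 normalised estimated counts in WT and 1491.5 in KD, a log2(fold change) of 0.47 (0.16 to 0.78). Fgfr2-217 held 34.3% of these counts in WT and 35.2% in KD. Summed alone, the isoforms with exon IIIc, Fgfr2-215 and Fgfr2-207, had a log2(fold change) of 0.46 (0.05 to 0.88).

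*Pdgfra*, the receptor that binds platelet-derived growth factors A, B and C, lies on chromosome 5 (chr5:75152292-75198215, plus strand), and 4 of 9 annotated transcripts were tested. Its main transcript Pdgfra-201 (ENSMUST00000000476.14, 1089 amino acids) was at 5470.6 normalised estimated counts in WT and 8573.6 in KD. It rose 1.57-fold, a log2(fold change) of 0.65 (0.45 to 0.85, adjusted p = 0.0232, limma's moderated test). Pdgfra-202 (ENSMUST00000168162.4) has another first exon and the same protein. It was at 2156.9 in WT and 2853.9 in KD, a log2(fold change) of 0.40 (0.15 to 0.66, adjusted p = 0.0715). In both transcripts the libraries of WT and KD cannot overlap, and Pdgfra-201 held 65% of the counts in WT and 67.2% in KD.

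The 2 other *Pdgfra* transcripts, Pdgfra-205 (ENSMUST00000201711.3) and Pdgfra-208 (ENSMUST00000202681.3), end inside an intron. They encode 790 amino acids, of which the last are read from the intron, and so lack the end of the kinase domain. The sequence is shown because it separates these forms from the whole receptor, with the bases read from the intron up to the stop codon in capitals.

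Pdgfra coding end inside an intron, chr5:75183143-75183189: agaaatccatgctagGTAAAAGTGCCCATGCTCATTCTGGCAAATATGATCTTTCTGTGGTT

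Pdgfra-205 was at 318 normalised estimated counts in WT and 581 in KD, a log2(fold change) of 0.87 (0.42 to 1.33, adjusted p = 0.0501). Pdgfra-208 was at 470 and 750, a log2(fold change) of 0.67 (0.28 to 1.06, adjusted p = 0.0608). Neither passed the moderated test, while both were called by the likelihood ratio q-values, and the libraries of the groups cannot overlap in either. Together, the forms that end in the intron were at 788 normalised estimated counts in WT and 1330.5 in KD, and the forms of the whole receptor at 7627.4 and 11427.5. Per length of transcript, the intron-ended forms held 17.3% of *Pdgfra* in WT and 18.9% in KD. The summed level of *Pdgfra* was 8415.4 normalised estimated counts in WT and 12758 in KD, a log2(fold change) of 0.60 (0.45 to 0.75). After division by the level of *Actb*, whose most abundant transcript had a log2(fold change) of 0.46, that of Pdgfra-201 was 0.19 and was not called (adjusted p = 0.127). Here and below, calls after division by *Actb* take its effect as known and leave out its standard error.

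*Pdgfrb*, the receptor of platelet-derived growth factors B and D, lies on chromosome 18 (chr18:61045150-61085061, plus strand), and both annotated transcripts were tested. Pdgfrb-201 (ENSMUST00000025522.10, 1099 amino acids) was at 2687.6 normalised estimated counts in WT and 3399.4 in KD, a log2(fold change) of 0.34 (0.13 to 0.55, adjusted p = 0.0696). It did not pass the moderated test but was called by the likelihood ratio q-values, and its libraries cannot overlap. Its log2(fold change) was 0.13 after centring on GC content and −0.12 after division by *Actb*. Pdgfrb-202 (ENSMUST00000115274.1), which encodes 4 more amino acids, was at 35.2 in WT and 102 in KD (adjusted p = 0.144).

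*Egfr*, the receptor of epidermal growth factor and related ligands, lies on chromosome 11 (chr11:16752203-16918158, plus strand) and had the lowest level of the 10 receptors. Its whole form Egfr-201 (ENSMUST00000020329.12, 1210 amino acids) fell from 461 normalised estimated counts in WT to 265 in KD. Its log2(fold change) was −0.80 (−1.12 to −0.48, adjusted p = 0.0323, limma's moderated test), a level 0.575 times that in WT, and the libraries of the groups cannot overlap. The second tested transcript Egfr-202 (ENSMUST00000102884.9, 655 amino acids) ends inside an intron and lacks the kinase domain. Its coding end is shown with the bases from the intron in capitals.

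Egfr coding end inside an intron, chr11:16887186-16887225: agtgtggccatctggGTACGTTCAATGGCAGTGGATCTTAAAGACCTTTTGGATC

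Egfr-202 was at 38.6 normalised estimated counts in WT and 46.5 in KD, with overlapping libraries (log2(fold change) 0.26, −0.80 to 1.33, adjusted p = 0.719). Its share per length of *Egfr* was 22.5% in WT and 37.9% in KD. Summed, *Egfr* was at 499 normalised estimated counts in WT and 311 in KD, a log2(fold change) of −0.68 (−1.0 to −0.37). Egfr-201 has 7906 words of 31 bases found in no other tested transcript and Egfr-202 has 745, more than any tested *Fgfr1* isoform. Read assignment still came to 148% of the variance within groups for Egfr-201 and 40.4% for Egfr-202. The call of Egfr-201 lies close to the threshold after centring on GC content (adjusted p = 0.0498).

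*Insr* and *Igf1r*, which respond to insulin and the insulin-like growth factors, were each tested with 1 transcript. Insr-201 (ENSMUST00000091291.4, chr8:3150922-3279617, minus strand) was at 2064.7 normalised estimated counts in WT and 1625.4 in KD, a log2(fold change) of −0.35 (−0.58 to −0.11, adjusted p = 0.0827). It did not pass the moderated test, while the likelihood ratio q-value called it and the libraries of the groups cannot overlap. The shortest of its 21 coding exons has 68 bases. Igf1r-201 (ENSMUST00000005671.9, chr7:67952827-68233668, plus strand) was at 5772.8 in WT and 6030.1 in KD, a log2(fold change) of 0.06 (−0.13 to 0.26, adjusted p = 0.637). For *Igf1r* it cannot be told whether the libraries of the groups overlap.

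*Met* lies on chromosome 6 (chr6:17463800-17573980, plus strand), and 2 of 7 annotated transcripts were tested, which encode the same 1379 amino acids. Met-203 (ENSMUST00000115443.7) held 98.5% of the counts in WT and was at 6809.9 normalised estimated counts in WT and 6387.1 in KD, a log2(fold change) of −0.09 (−0.31 to 0.12, adjusted p = 0.514). Met-202 (ENSMUST00000115442.7) was at 103 in WT and 163 in KD and did not pass the test (adjusted p = 0.322). The ligand of MET, hepatocyte growth factor, is described with the lists below.

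*Axl* lies on chromosome 7 (chr7:25757273-25788705, minus strand), and its 2 tested transcripts, of 8 annotated, differ in an exon of 27 bases, shown here in capitals because it is the only coding difference between them.

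Axl exon of 9 codons, chr7:25773099-25773125: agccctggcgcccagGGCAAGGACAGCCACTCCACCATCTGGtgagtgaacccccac

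Axl-201 (ENSMUST00000002677.10, 888 amino acids), which holds this exon, was at 15186.7 normalised estimated counts in WT and 17936.6 in KD, a log2(fold change) of 0.24 (0.04 to 0.44, adjusted p = 0.128). Axl-202 (ENSMUST00000085948.10, 879 amino acids), which skips it, was at 7557.4 and 7802.9 (adjusted p = 0.902). Neither passed the test. The libraries of WT and KD cannot overlap for Axl-201 and must overlap for Axl-202. The isoform with the exon held 66.8% of the counts in WT and 69.7% in KD.

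*Ddr2*, which is activated by fibrillar collagens, lies on chromosome 1 (chr1:169972307-170110762, minus strand), and 3 of 6 annotated transcripts were tested. All 3 encode the same 854 amino acids and differ in their untranslated regions. Ddr2-202 (ENSMUST00000170800.7) held 81.6% of the counts in WT, with 17270.2 normalised estimated counts in WT and 15233.1 in KD, a log2(fold change) of −0.18 (−0.34 to −0.03, adjusted p = 0.133). Ddr2-205 (ENSMUST00000194690.5) was at 3802.8 and 3466.3 and did not pass the test (adjusted p = 0.595).

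The scarce Ddr2-201 (ENSMUST00000027985.7) rose from 97.9 normalised estimated counts in WT to 349 in KD, a log2(fold change) of 1.83 (1.03 to 2.62, adjusted p = 0.0365, limma's moderated test). Its libraries cannot overlap between the groups. This form has a 3′ untranslated region of 54 bases, against 5550 bases in Ddr2-202 and 5551 in Ddr2-205. It made up 0.462% of all *Ddr2* counts in WT and 1.83% in KD, or 1.31% and 5.05% per length. Only 26 of its 2898 words of 31 bases are found in no other tested transcript, and read assignment came to 43.2% of its variance within groups. The summed level of *Ddr2* was 21170.8 normalised estimated counts in WT and 19048.5 in KD, a log2(fold change) of −0.15 (−0.30 to −0.01).

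To compare receptors with each other, levels were divided by transcript length and summed over isoforms. In WT, *Axl* stood highest with 5499.1 normalised estimated counts per kb, followed by *Ddr2* with 2559.6, *Fgfr1* with 1554.4, *Pdgfra* with 1392.2 and *Met* with 1022.2. Lower down were *Igf1r* with 506 and *Pdgfrb* with 504 counts per kb, *Fgfr2* with 348, *Insr* with 221 and *Egfr* with 58.2. Among neighbours in this order, the 95% confidence intervals of *Fgfr1* and *Pdgfra* and those of *Igf1r* and *Pdgfrb* overlapped, while all other neighbours were apart. In KD, *Fgfr1* (2561.2 counts per kb) stood above *Ddr2* (2360.5), which stood above *Pdgfra* (2129.5), and the intervals of each of these neighbours overlapped. *Pdgfrb* (647) stood above *Igf1r* (529), whose interval overlapped that of *Fgfr2* (489). *Axl* remained highest with 6206.8 and *Egfr* lowest with 41.7 counts per kb.

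**Figure D3:**
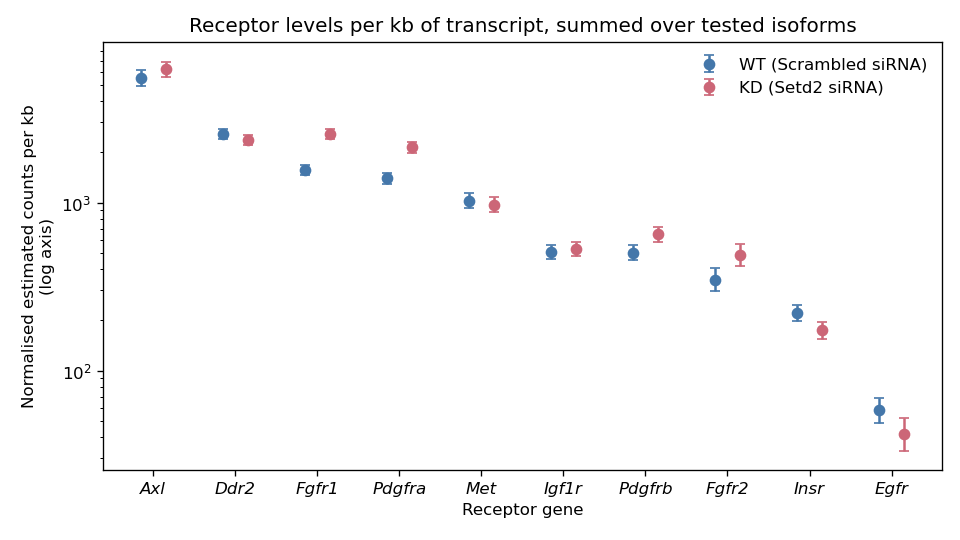
Summed level of each receptor gene per kb of transcript (vertical axis, normalised estimated counts per kb, log axis) in WT and KD for the 10 receptors (horizontal axis, ordered by WT). Points are group means of 2 libraries with 95% confidence intervals. *Axl* is highest and *Egfr* lowest in both groups, and *Fgfr1* and *Pdgfra* show the widest gaps between the groups among the upper 5 receptors.

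Added over the 10 receptors, the level was 13663.8 counts per kb in WT and 16111.8 in KD, a log2(fold change) of 0.24 (0.14 to 0.33). This interval takes the receptors, as well as their isoforms, as independent. Division by *Actb* lowers every log2(fold change) by 0.46, more than this rise, so the direction of the total depends on the scaling. For sums that were not divided by length, the 95% confidence interval of the log2(fold change) lay above 0 for 4 receptors (*Fgfr1*, *Pdgfra*, *Fgfr2*, *Pdgfrb*), below 0 for 3 (*Egfr*, *Insr*, *Ddr2*) and across 0 for 3 (*Axl*, *Igf1r*, *Met*). Per kb, the interval of *Ddr2* also crossed 0 (−0.26 to 0.03). No test was made of these sums. In these bulk samples, fewer cells with a transcript and less RNA per cell cannot be told apart.

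Although single libraries are not given, the sum of squares within groups sets bounds on them. With 2 libraries in each group, the groups cannot overlap where the effect exceeds the square root of that sum, and they must overlap where it is smaller than this root divided by the square root of 2. By these bounds, WT and KD libraries cannot overlap for 18 of the 27 receptor transcripts, must overlap for 6 and are undetermined for 3. Over all transcripts, 54.8% cannot overlap, against 66.7% of the receptor transcripts. All 6 called receptor transcripts are among the 18. The bounds use the same effects and variances within groups as the test, so they are no separate evidence for a change. The largest effect with overlapping libraries was that of the scarce Fgfr1-214, with a log2(fold change) of −2.10 and a standard error of 1.73.

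**Figure D4:**
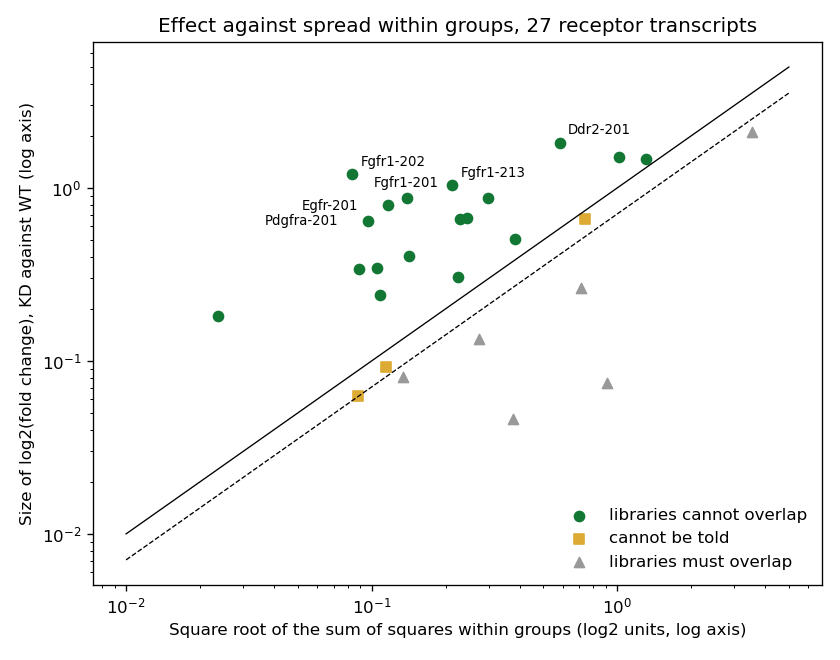
Size of the log2(fold change) (vertical axis, log axis) against the square root of the sum of squares within groups (horizontal axis, log2 units, log axis) for the 27 receptor transcripts, with the called transcripts named. Above the solid line libraries of WT and KD cannot overlap (18 transcripts), below the dashed line they must overlap (6), and between the lines it cannot be told (3).

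The partners of the receptors were counted in 6 lists, as genes with a transcript called higher or lower by limma's moderated test. Values given for a gene of these lists are those of a single called transcript, apart from *Col5a1*, which had none. They are not the level of the gene summed over its transcripts, which can change by another amount. A gene with more tested transcripts has more chances of a call. The RAS proteins and kinases had 48 transcripts of 21 genes tested, against 34200 of 21945 over all genes. Transcripts with a mean of at least 100 were also called more often, 15.6% against 9.68% of all. The shares below were not matched for either, so an excess over all genes was not tested. The ligands of the 10 receptors had 1 of 22 tested genes higher and 6 lower, or 4.55% and 27.3%, against 7.47% and 5.93% of all genes. *Hgf*, the ligand of MET, rose from 312 normalised estimated counts to 769, a log2(fold change) of 1.30 (standard error 0.19, adjusted p = 0.029). Of the 4 listed fibrillar collagens, which activate DDR2, 3 fell, with log2(fold changes) of −0.92 for *Col3a1* (adjusted p = 0.0201) and −0.68 for *Col1a2* (adjusted p = 0.0218), while *Col5a1* was not called (31674.4 and 34191.2 normalised estimated counts in WT and KD). *Pros1*, which encodes protein S, a ligand of the AXL family, fell by 0.79 on the log2 scale (standard error 0.11, adjusted p = 0.0268). The other ligands called lower were *Col1a1*, *Fgf7* and *Fgf10*. *Gas6*, *Pdgfb* and *Tgfa* were not among the tested transcripts.

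Among co-receptors and ligand-binding proteins, 3 of 20 tested genes had a transcript called higher and 6 had one called lower (15% and 30%, against 7.47% and 5.93% of all genes). *Flrt2*, which binds fibroblast growth factor receptors, rose by a log2(fold change) of 0.74 (adjusted p = 0.0229), and the heparan sulfate carrier *Gpc1* rose by 0.69 (adjusted p = 0.0239). *Fgfbp3*, a carrier of fibroblast growth factors, rose by 0.57 (adjusted p = 0.0387). The co-receptor *Nrp1* fell from 5359 normalised estimated counts to 2436.8, a log2(fold change) of −1.14 (standard error 0.10, adjusted p = 0.0173). The syndecans *Sdc2* and *Sdc1*, which present heparin-binding growth factors, fell by 1.0 and 0.67 on the log2 scale (adjusted p = 0.0162 and 0.0201). *Sdc4* and *Fgfbp1* were also called lower, as was *Adam10*, which encodes a protease but was counted in this list. After division by *Actb*, *Flrt2* (0.29), *Gpc1* (0.24) and *Fgfbp3* (0.12) were no longer called (adjusted p = 0.0693, 0.1 and 0.41).

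Among adaptors and enzymes that bind active receptors, 4 of 34 tested genes had a transcript called higher and 2 had one called lower (11.8% and 5.88%). The share called lower was close to the 5.93% of all genes. *Src* rose by a log2(fold change) of 1.22 (standard error 0.17, adjusted p = 0.029), and the adaptor *Shc1* by 0.89 (standard error 0.07, adjusted p = 0.016). *Pik3cd* and *Yes1* were also called higher. *Pik3r3*, a regulatory subunit of PI3-kinase, fell from 6975.2 normalised estimated counts to 2986.1, a log2(fold change) of −1.22 (standard error 0.10, adjusted p = 0.0165), and the adaptor *Gab1* fell by 0.53 (adjusted p = 0.0487). Of 21 tested RAS proteins and kinases of the ERK and AKT pathways, 4 had a transcript called higher and 1 had one called lower (19% and 4.76%, against 7.47% and 5.93% of all genes). A called transcript rose by 1.00 for *Map2k2*, 0.90 for *Akt1* and 0.79 for *Mras* on the log2 scale (adjusted p = 0.0183, 0.0259 and 0.044). *Hras* was the other gene with a transcript called higher.

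Among negative regulators of the receptors, 5 of 28 tested genes had a transcript called higher and 3 had one called lower (17.9% and 10.7%, against 7.47% and 5.93% of all genes). After centring on GC content, 3 genes of this list were called, against 8. *Cblb*, a ubiquitin ligase, rose from 81.1 to 248 normalised estimated counts (log2(fold change) 1.61, adjusted p = 0.0201), *Rasal2*, which switches off RAS, by 1.05 (adjusted p = 0.0413), and *Lrig1* by 0.79 (adjusted p = 0.0372). The phosphatase gene *Ptprj* and *Socs2* were among those called lower. Of 31 other receptor tyrosine kinases tested, 1 was called higher, *Epha2* with a log2(fold change) of 0.49 (adjusted p = 0.0419). None was called lower by limma's moderated test, while the likelihood ratio q-values called 1 lower. In either direction, 11 of the 31 genes had an unadjusted p under 0.05, a count without the share of all genes beside it. The median log2(fold change) of summed levels was 0.12 over the 10 receptors, −0.04 over the other receptor tyrosine kinases, −0.14 over the ligands and −0.03 over all genes. After centring on GC content, *Epha2*, *Fgfbp3*, *Mras*, *Rasal2* and *Lrig1* were among the list genes no longer called. Division by *Actb* also removed the calls of the transcripts given for *Rasal2*, *Lrig1*, *Mras* and *Epha2* (adjusted p = 0.0757, 0.123, 0.155 and 0.805). The likelihood ratio q-values called neither the transcript given for *Cblb* nor that for *Gab1*.

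**Figure D5:**
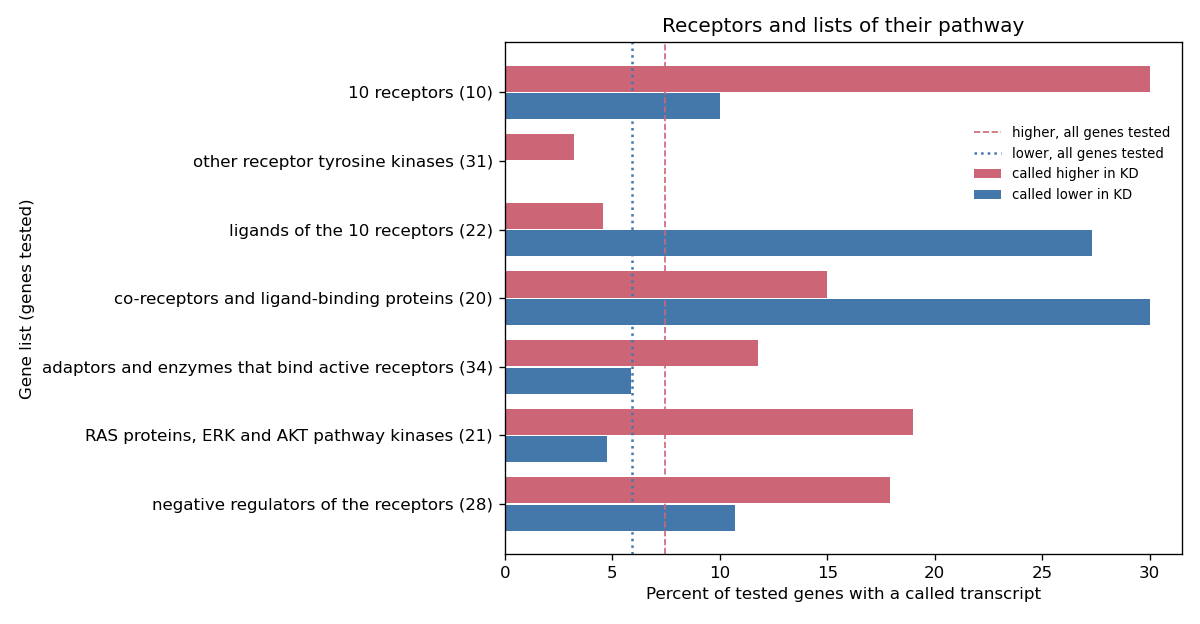
Percent of tested genes (horizontal axis) with a transcript called higher or lower in KD for the 10 receptors and 6 lists of related genes (vertical axis, number of genes tested in brackets). The dashed and dotted lines are the shares over all genes tested, 7.47% higher and 5.93% lower, and the ligands and co-receptors hold the most genes called lower, with 27.3% and 30%.

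The 6 calls among the receptors came from a moderated test with a trend of the variance on the mean, and the likelihood ratio and Wald q-values of Sleuth each called all 6 as well. Without that trend, limma's moderated test called 0 receptor transcripts and 127 of all transcripts. In the test with the trend, 15 receptor transcripts had an unadjusted p under 0.05. The share of all transcripts at that unadjusted p is not given here, so the count cannot be read as an excess. The likelihood ratio q-values called 11 receptor transcripts in all, and 12.5% of all transcripts. Division by *Actb* lowered all log2(fold changes) by 0.46 and left 4 receptor transcripts called higher, namely the same *Fgfr1* isoforms and Ddr2-201, and 7 called lower. These 7 were Egfr-201 (−1.25), Insr-201 (−0.80), Ddr2-202 (−0.64), Ddr2-205 (−0.59), Met-203 (−0.55), Fgfr1-203 (−0.54) and Igf1r-201, which turned from 0.06 to −0.39. With that scaling, the summed levels of *Pdgfrb* and *Axl* also turned to log2(fold changes) of −0.09 and −0.28.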

How the data were processed

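mRNA-seq of NIH/3T3 cells, 2 KD and 2 WT libraries grouped by the *Setd2* status in their labels, was analysed. The authors quantified reads with Kallisto and compared groups with Sleuth, and their processing notes also list bcl2fastq 2.17, HISAT2 and GRCm38. The transcriptome index and the filter on low counts are not given in the sources used here. The deposited means and effects are on the natural log scale of normalised estimated counts plus 0.5. The deposited q-values and p-values come from Sleuth's own tests, and only the q-values served, as alternatives. A deposited gene table was not used.

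Effects were converted to log2. The variance within groups (2 degrees of freedom) was recovered from the deposited variances and the effect, and limma 3.58.1 (R 4.3.3) squeezed it towards a trend on the mean (4.665 total degrees of freedom). The two-sided test, adjusted over 34200 transcripts by Benjamini-Hochberg with a threshold of 0.05, was tested on simulated data. Group levels are exp(mean ± 0.5 × effect) − 0.5. Summed levels carry 95% intervals by the delta method, with isoforms and, in the total, receptors taken as independent. Positions and exon sequences came from GENCODE M21 (GRCm38), which matched 98.6% of transcripts by versioned identifier.

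The receptors and lists were chosen with earlier results of these data known. Values are given for all tested receptor transcripts, *Setd2* and, in each list, up to 3 called genes with the largest rise and fall at a mean of at least 100. *Col5a1*, *Lum*, *Cd68*, *Actb* and genes named without values were chosen after their values were seen. Some genes and sequences are not reported here.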

Additional observations from a re-analysis of the deposited data

How the results depend on the processing

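No paired analysis was possible because the table holds no values of single libraries, and for the same reason no library could be left out in turn. Against 3312 called transcripts, 6 receptor transcripts of 4 receptors and 36 genes of the lists, likelihood ratio q-values called 11 receptor transcripts of 7 receptors. Wald q-values called 6233 transcripts, 13 receptor transcripts of 8 receptors and 59 list genes. Without the trend of the variance, 127 transcripts, 0 receptor transcripts of 0 receptors and 3 list genes were called, and *Setd2* (−1.99) missed the threshold (adjusted p = 0.0537). A mean of at least 100 gave 12 receptor transcripts of 7 receptors, and a mean of at least 20 gave 11. Centring on GC content gave 2108 transcripts and kept all 6 receptor calls (largest adjusted p = 0.0498), and centring on the median kept them too. A threshold of 0.01 left 0 calls for transcripts, receptors, list genes and *Setd2* (−1.99), and one of 0.1 gave 6336 transcripts, 12 receptor transcripts of 7 receptors and 56 list genes.

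Division by *Actb* gave 9828 transcripts (5.39% higher, against 56.2%), and the test without a trend placed 40.2% higher. With *Actb*, 11 receptor transcripts and 89 list genes (9 with a transcript higher, 81 lower) were called, and the log2(fold changes) of summed levels became 0.14 for *Pdgfra*, −1.14 for *Egfr*, 0.26 for *Fgfr1*, 0.01 for *Fgfr2*, −0.39 for *Igf1r*, −0.80 for *Insr*, −0.53 for *Met*, −0.28 for *Axl*, −0.61 for *Ddr2* and −0.09 for *Pdgfrb*, which turned its direction. By construction, *Actb* lowers all effects alike. Single transcripts that turned were Pdgfrb-201 (−0.12), Pdgfra-202 (−0.05), Axl-201 (−0.22), Axl-202 (−0.41), Igf1r-201 (−0.39), Fgfr2-211 (−0.15) and Egfr-202 (−0.19) with *Actb*, and Met-203 (0.01) and Axl-202 (−0.07) with GC content. The most abundant transcript alone gave 1.20 for *Fgfr1* and 0.66 for *Fgfr2*. Counting libraries that are not certain to overlap gave 21 receptor transcripts. Beyond what construction shows, the cause was not tested. Depth per library is unknown, and transcripts under 100 counts had wide intervals.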
